A study of Ovis aries with 2 samples.

Results

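Basal keratinocytes of lamb skin outside the hair follicle are described here, as far as a rule on their transcripts could pick them out. A cell was taken when KRT14 stood at 40 or more UMIs per 10000 (a UMI marks 1 captured RNA molecule) and at least 2 of the 4 genes FGFBP1, DLK2, CDH13 and POSTN had a UMI. It also had to lack any UMI of LGR5, PPP2R2B and FIBIN, to stay under 20 UMIs per 10000 for both KRT1 and ACTG2, and to have UMIs of at most 3 of the 6 cycling genes TOP2A, BIRC5, MKI67, UBE2C, CENPF and CDK1. This left 1027 of 14037 cells, with 636 of the 6452 cells of the straight wool library and 391 of the 7585 cells of the curly wool library. These genes chose the cells, so their values and combinations are given as a description of the selected cells. The name of the cells was checked against genes that the rule did not use.

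Lambs of Hu sheep, a Chinese breed, were sampled at 3 days of age from the side of the body, and both groups shared breed, age, tissue and handling. Skins of 3 lambs with straight wool were pooled into 1 library, and skins of 3 lambs with curly wool (labelled as waved wool) were pooled into the other. Each library was loaded on the 10× Genomics platform as a mixture of a whole-skin and an isolated-follicle suspension, so the share of any cell type also follows the mixing. With 1 library per wool type, wool type, pool and library cannot be told apart, and no test between them was possible.

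Basal keratinocytes form the lowest layer of the epidermis. They sit on the basement membrane through hemidesmosomes, carry the keratin pair KRT5 and KRT14, and hold the dividing cells of the tissue. Daughter cells that leave the membrane switch to KRT1 and KRT10 and later build the cornified layer, while the outer root sheath and the bulge continue the basal layer down into the follicle with many of the same genes.

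The chosen cells held 6317505 UMIs in the straight and 3481967 UMIs in the curly library, with medians of 9490 and 8137 UMIs and of 2274 and 1983 genes per cell. UMIs were summed over the cells of a library and are given per 1000000 UMIs of those cells (CPM), and all intervals cover counting error only. Free RNA from other cells also gives UMIs in a droplet, and endothelial-like cells (146 and 108 cells, medians of 6654.5 and 5527 UMIs) served to show that level for keratinocyte genes. The libraries shared 70 cell barcodes, and for 0 of them both cells were among the chosen ones. Of the 5 endothelial markers, KDR, CDH5 and TIE1 had 0 UMIs in the straight basal cells and FLT1 had 0 in the curly ones, and the 5 together reached 0.95 CPM and 3.16 CPM. The 6 dermal markers summed to 163 and 156 CPM, the 5 immune markers to 23.9 and 45.1 CPM and the 3 melanocyte markers in the table to 1.58 and 1.72 CPM. Cells with UMIs of at least 2 markers of 1 of these types made up 6.45% (41 cells) and 5.37% (21 cells).

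Genes of basal keratinocytes outside the rule were high in the chosen cells of both libraries. KRT5, the keratin that pairs with KRT14, stood at 13362 CPM in the straight library and at 14025 CPM in the curly library. In the endothelial-like cells it stood at 374 and 442 CPM. COL17A1, the collagen that crosses the membrane at the hemidesmosome, was at 417 CPM (95% interval 401 to 433) and 514 CPM (491 to 539), and TP63, the transcription factor of stratified epithelia, at 67.6 and 72.4 CPM. Endothelial-like cells showed 16.9 and 12.8 CPM of COL17A1 and 9.31 and 6.42 CPM of TP63. The integrin genes ITGA6 (121 and 107 CPM) and ITGB4 (145 and 115 CPM) stood nearer to the endothelial-like cells, which were at 82.1 and 81 CPM of ITGA6 and 74.5 and 68.1 CPM of ITGB4. Among these genes outside the rule, the label of a basal keratinocyte was thus met by KRT5, COL17A1 and TP63, and less clearly by the integrins.

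The label's second part, a place between the follicles, was not settled by these values. SOX9, a transcription factor of the outer root sheath and bulge, was at 188 and 163 CPM, below the 358 and 320.3 CPM of KRT14-high cells with an LGR5 UMI and above the 12.7 and 20.6 CPM of endothelial-like cells. KRT17, a keratin of the follicle and of activated epidermis, was at 5047 and 3794 CPM, against 5271 and 6556 CPM with LGR5. CXCL14, a chemokine of epithelia, was at 1916 and 1356 CPM, against 3120.0 and 1629 CPM. Of 7 tested follicle stem and outer root sheath markers, 2 were at least 2-fold higher in basal cells than with LGR5, and 0 lower. These 2 were PTHLH and SFTPC, and the difference held in both libraries. Over all genes, 2.5% were higher and 3.18% lower in this contrast. Cells of the basal outer root sheath without an LGR5 UMI would also pass the rule. The plot of summed levels shows these genes side by side in the 4 populations.

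**Figure D1:**
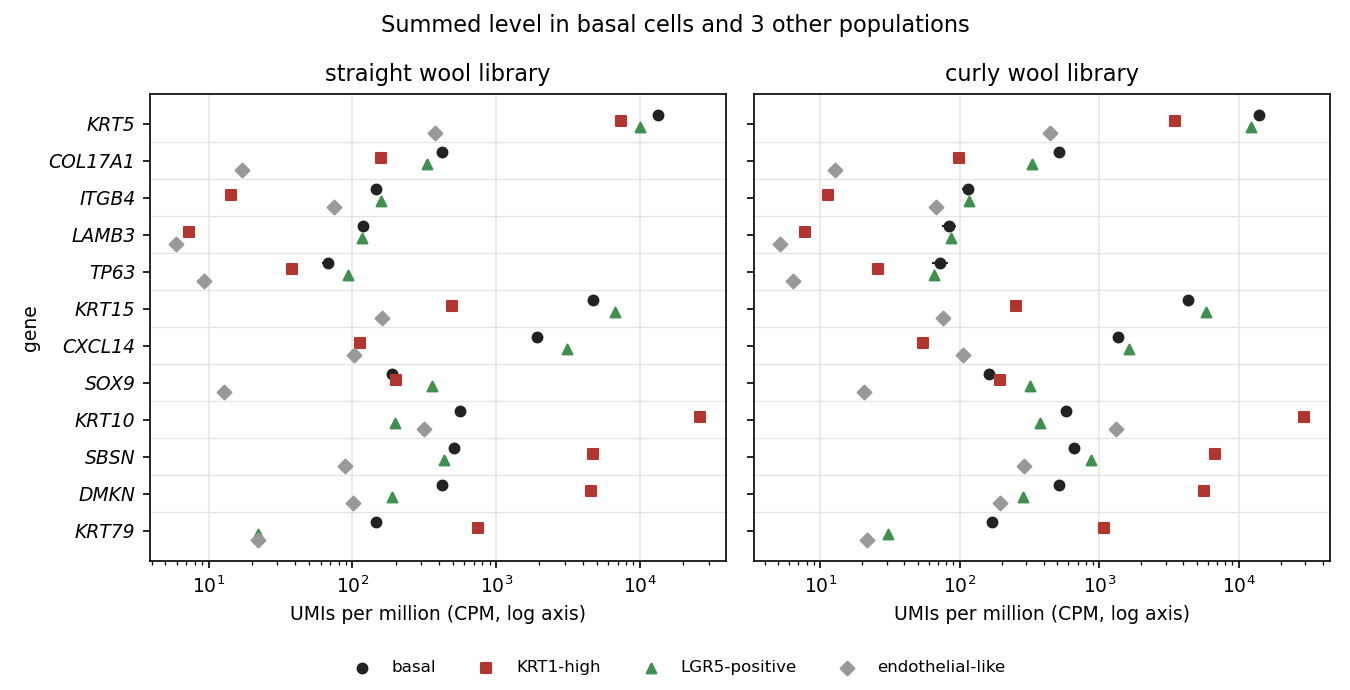
CPM of summed UMIs (log axis) of 12 genes that the rule did not use, in basal, KRT1-high, LGR5-positive and endothelial-like cells of each library, with exact Poisson 95% intervals as bars on the basal values. KRT5 stood at 13362 and 14025 CPM in basal cells, and KRT10 at 561 and 582 CPM, far below the 26105 and 29126 CPM of KRT1-high cells.

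Each of the 4 chosen markers was looked at again in cells picked by the other 3. POSTN, a secreted matrix protein, had a UMI in 79.1% of such cells in the straight and 75.8% in the curly library, and CDH13, a cadherin held by a lipid anchor, in 68.0% and 63.9%. DLK2, a relative of the Notch ligands, was found in 50% (95% interval 45.7% to 54.3%) and 65.9% (59.9% to 71.6%). FGFBP1, which carries FGFs out of the matrix, was found in 34.5% (30.4% to 38.7%) and 6.76% (4.42% to 9.81%). FGFBP1 was thus the least frequent of the 4 in both libraries, and its share was the farthest apart between them. Shares in endothelial-like cells were 2.05% and 0.926% for DLK2, 8.90% and 2.78% for FGFBP1, 12.3% and 9.26% for POSTN and 41.8% and 41.7% for CDH13, which endothelial cells also express. Median UMIs of the cells picked without FGFBP1 were 9532.5 and 7865.5. With each cell thinned to 2000 UMIs, all chosen cells gave 22.9% and 7.86% for FGFBP1 and 29.9% and 42.8% for DLK2, where the unthinned shares were 45% and 11.8%, and 56.8% and 76.7%. Thinning left out 30 straight and 22 curly cells.

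Combinations of the 4 markers are given as counts alone, since the rule selected on them. The trio of DLK2, CDH13 and POSTN without FGFBP1 was the most frequent combination in both, with 155 straight cells (24.4%) and 158 curly cells (40.4%). CDH13 with POSTN alone followed in the straight library with 115 cells (18.1%), and DLK2 with POSTN alone in the curly library with 85 cells (21.7%). All 4 markers had a UMI in 76 straight (11.9%) and 6 curly cells (1.53%). Around the KRT14 limit, 32 straight and 8 curly members lay from 40 to 48 UMIs per 10000, with KRT5 at 6052 and 6983 CPM, and 33 and 14 cells that met every other condition lay from 32 to 40, with KRT5 at 5003 and 6183 CPM. Around the KRT1 limit, 11 and 6 members lay from 16 to 20 UMIs per 10000, with KRT10 at 3621 and 1739 CPM, and 8 and 2 other cells lay from 20 to 24, with KRT10 at 2338 and 1441 CPM. KRT5 thus differed by less than 2-fold across the KRT14 limit, and KRT10 by less than 2-fold across the KRT1 limit. KRT10 across the KRT14 limit was at 243 CPM outside and 183 CPM inside in the straight library, and at 4918 CPM outside and 216 CPM inside in the curly library.

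Basal cells were 9.86% of the straight library (exact Clopper-Pearson 95% interval 9.14% to 10.6%) and 5.15% of the curly library (4.67% to 5.68%), a log2 ratio of curly over straight of -0.94. KRT14-high cells as a whole showed the opposite order, with 2147 cells (33.3%) in the straight and 2751 cells (36.3%) in the curly library. Among these KRT14-high cells, 29.6% (27.7% to 31.6%) and 14.2% (12.9% to 15.6%) met the rest of the rule. The condition that most often stood alone in the way was the number of markers, which kept out 510 straight and 1025 curly cells, whose median UMIs were 3685.5 and 3714, less than in the chosen cells. The follicle genes alone kept out 268 and 286 cells, KRT1 alone 106 and 32, the cycling genes alone 76 and 18, and ACTG2 alone 2 and 23. With 1 marker enough, the shares were 14.1% and 9.70%, a log2 ratio of -0.54, and with 3 markers needed 5.25% and 2.41%, a log2 ratio of -1.12. The curly share was the lower one under each of the 14 alternative rules that were tried.

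The step from the basal to the suprabasal layer was described by comparing the chosen cells with KRT1-high cells (595 straight and 794 curly cells, with KRT1 at 20 or more UMIs per 10000 and a KRTDAP UMI). The limits on LGR5, PPP2R2B, FIBIN, ACTG2 and the cycling genes were the same for these cells, and KRT14 was not used. Most genes of the hemidesmosome and basement membrane stood higher in basal cells and most cornification genes lower, in both libraries. Of 9101 genes with at least 100 UMIs, 7.18% (653 genes) were at least 2-fold higher in basal cells in both libraries and 5.4% (491 genes) at least 2-fold lower. Of 5 basal keratins, 1 was at least 2-fold higher in basal cells in both libraries and 1 lower. Since KRT1 set the populations apart, these ratios describe them and carry no test.

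Of 15 genes of the hemidesmosome and basement membrane, 12 were at least 2-fold higher in basal cells and 0 lower, with medians of 1.94 and 2.38 on the log2 scale beside 0.098 and 0.14 over all genes. LAMB3, a chain of laminin 332, was at 118 and 83.9 CPM in basal cells and at 7.29 and 7.85 CPM in KRT1-high cells, which is 4.02 (3.60 to 4.46) and 3.42 (3.03 to 3.83) on the log2 scale. ITGA3, the integrin chain that binds laminin 332, was at 35.9 and 39.1 CPM against 2.83 and 2.62 CPM. Over the whole list, endothelial-like cells, which lie on a basement membrane too, summed to 1732 and 1196 CPM and basal cells to 1704 and 1747 CPM. COL7A1, the collagen of anchoring fibrils, stood at 54.9 and 55.1 CPM against 9.23 and 7.85 CPM, and DST, the linker between hemidesmosome and keratin, at 80.4 and 63.2 CPM against 12.7 and 6.54 CPM. The linker PLEC did not follow them, with 58.3 and 58.9 CPM against 52.7 and 38.1 CPM, and neither did the tetraspanin CD151, with 275 and 359 CPM against 287 and 335 CPM.

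KRTDAP had helped to choose the KRT1-high cells and was left out of this comparison. Of 17 genes of suprabasal differentiation, 16 were at least 2-fold lower in basal cells, against 5.4% of all genes. The medians were -3.44 and -3.26 on the log2 scale. KRT10, the partner of KRT1, was at 561 and 582 CPM in basal cells and at 26105 and 29126 CPM in KRT1-high cells. The curly basal value lay below the 1329 CPM seen in the curly endothelial-like cells, and the straight value lay above the 314 CPM of the straight ones. SPINK5, an inhibitor of the proteases that shed the cornified layer, stood at 7.44 and 23.8 CPM against 689.8 and 1346 CPM, and KRT77, a suprabasal keratin, at 6.81 and 8.33 CPM against 486 and 867 CPM. CNFN, of the cornified envelope, had 4 and 12 UMIs in all basal cells. The exception was TGM3, a transglutaminase, which was higher in basal cells with 54.3 and 48 CPM against 23.5 and 12.6 CPM. Genes of desmosomes and adherens junctions, taken as 1 list, were split between the layers. Of 14 genes, 3 were at least 2-fold higher in basal cells and 3 lower, beside 7.18% and 5.4% of all genes. CDH3, the P-cadherin gene, was at 38.1 and 34.8 CPM against 16.5 and 8.56 CPM. DSP, the plaque protein of desmosomes, was at 384 and 372 CPM against 974 and 945 CPM.

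**Figure D2:**
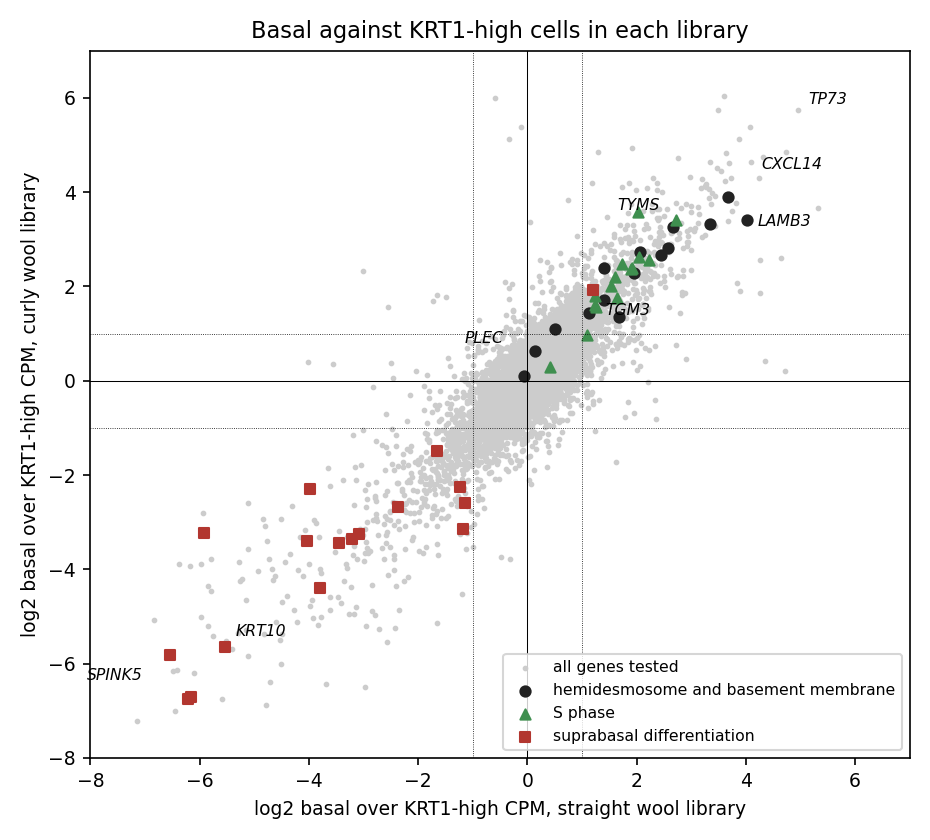
Log2 ratio of basal over KRT1-high CPM in the straight (horizontal) and the curly library (vertical) for 9101 genes, with 3 gene lists marked and dotted lines at a 2-fold difference. Genes of the hemidesmosome (12 of 15) and of S phase (13 of 15) lie above 2-fold in both libraries, and suprabasal genes (16 of 17) below it.

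Genes of DNA replication were higher in the chosen cells, with cells of 4 or more cycling genes left out of both populations. Of 15 S phase genes, 13 were at least 2-fold higher than in KRT1-high cells, against 7.18% of all genes. TYMS, which makes thymidylate, stood at 22.5 and 29 CPM against 3.42 and 2.74 CPM, and MCM2, a subunit of the replicative helicase, at 43.1 and 49.1 CPM against 9.23 and 8.33 CPM. CCND1, a D-type cyclin, had the other order with 189 and 211 CPM against 407 and 443 CPM, and CCND2 was at 95 and 46 CPM against 29.9 and 9.4 CPM.

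Signalling lists were mixed, and their counts stand beside the 7.18% and 5.4% of all genes. Of 11 Notch genes, 3 were at least 2-fold higher in basal cells and 1 lower. The ligand DLL1 was at 44.2 and 38.5 CPM against 6.25 and 3.81 CPM, the ligand JAG2 at 37.4 and 46 CPM against 3.72 and 2.74 CPM, and LFNG, which modifies the receptors, at 20.9 and 32.5 CPM against 1.94 and 2.14 CPM. NOTCH3 was at 8.07 and 10.1 CPM against 55.4 and 59.1 CPM. Of 17 WNT genes, 6 were higher and 0 lower, among them the ligands WNT6, at 9.5 and 21 CPM against 1.94 and 1.07 CPM, and WNT10A, at 35.3 and 49.7 CPM against 10.9 and 5 CPM. Of 9 genes of the EGFR family, 4 were lower and 0 higher, with the ligand AREG at 110.3 and 52.3 CPM against 465 and 419 CPM and the ligand BTC at 15.5 and 15.5 CPM against 64.2 and 92.7 CPM. Of 8 genes of the IGF axis, 5 were higher and 0 lower, such as the binding protein IGFBP3 at 343 and 326 CPM against 146 and 43.9 CPM, though endothelial-like cells held 488 and 914 CPM of it. Of 14 BMP and TGF-beta genes, 4 were higher and 0 lower, and of 20 epidermal transcription factors, 0 were higher and 3 lower.

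By size, the ratio nearer to 0 of the 2 libraries was largest for TP73, a relative of TP63, at 18.4 and 25.6 CPM in basal cells and 0.596 and 0.476 CPM in KRT1-high cells (4.95 and 5.75 on the log2 scale). PHLDB1, which ties microtubules to the basal cortex, followed at 14.7 and 19.2 CPM against 0.744 and 0.714 CPM, and CTNNAL1, a catenin-like gene, at 138 and 199.6 CPM against 7.29 and 10.1 CPM. CXCL14 (4.09 and 4.63 on the log2 scale), SFTPC, PRKAR1B, the neurotrophin NTF3, SCUBE2, the glutathione transferase GSTP1 and ITGA3 made up the rest of the 10. At the other end stood KRT4, a keratin of moist epithelia, with 8 and 1 UMIs in all basal cells and 180.4 and 43.1 CPM in KRT1-high cells. SERPINA12, with 2 and 4 UMIs, and LYPD2, with 16 and 10 UMIs, were also at the low end. PLA2G4E and GPRIN2 had 0 UMIs in the basal cells of both libraries, which allows up to 0.475 and 0.862 CPM.

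LGR5-positive cells (300 straight and 547 curly cells, KRT14-high with an LGR5 UMI) differed from the chosen cells in fewer genes. Of 8123 genes with at least 100 UMIs, 2.5% (203 genes) were at least 2-fold higher in basal cells in both libraries and 3.18% (258 genes) at least 2-fold lower. Of 15 genes of the hemidesmosome and basement membrane, 0 were apart in either direction, with medians of -0.25 and -0.15 on the log2 scale beside -0.020 and 0.035 over all genes. KRT15, a keratin of the bulge and of basal cells, was at 4699.6 and 4345 CPM in the chosen cells and 6734 and 5856 CPM with LGR5. LGR5 chose these cells too, so the differences describe 2 selected populations.

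Keratins of simple epithelia and glands marked the LGR5-positive side. Of 5 gland markers 3 were at least 2-fold lower in basal cells, against 3.18% of all genes. KRT8 was at 9.34 and 25.3 CPM in basal cells and at 179 and 278 CPM with LGR5, and KRT19 at 5.38 and 33.9 CPM against 132 and 460.2 CPM. In the curly basal cells, 63 of the 118 KRT19 UMIs lay in 1 cell. BGN, a small proteoglycan, stood at 26.8 and 56.9 CPM against 288 and 638 CPM, and SFRP1, a WNT antagonist, at 102 and 67.5 CPM against 655 and 675 CPM. NTM, CHODL, RNF152, LCN2, FEZ1, HSD17B14 and CNTFR were the other genes farthest on that side, each with 16 UMIs or fewer in the basal cells of a library. THBS1, an adhesive matrix protein, was at 79.3 and 77.5 CPM against 361 and 440.2 CPM.

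On the basal side stood ACSL6, which activates long-chain fatty acids, at 21.1 and 23.3 CPM against 1.28 and 0.238 CPM. GATA6, a transcription factor known from the upper follicle and sebaceous duct, stood at 9.34 and 11.8 CPM against 1.28 and 0.238 CPM, and at 17.1 and 17.1 CPM in KRT1-high cells. PTHLH, the parathyroid hormone-like signal of keratinocytes, was at 31.7 and 23 CPM against 3.83 and 1.91 CPM. PLA2G7, a secreted lipase, was at 122 and 81.8 CPM against 18.3 and 6.2 CPM, while endothelial-like cells held 57.6 and 23.1 CPM. HAMP, the gene of hepcidin, was at 93.4 and 31 CPM against 14.1 and 0.238 CPM, in 104 straight and 28 curly basal cells. CXCL8, a neutrophil chemokine, was also among the 10, at 115 and 180.1 CPM against 12.8 and 11 CPM, but 485 of its 627 curly UMIs lay in 1 cell and endothelial-like cells held 204 and 155 CPM. GKN1, WFDC2, IGFBP6 and SFTPC completed the 10. Of 17 WNT genes, 4 were higher in basal cells and 5 lower, beside 2.5% and 3.18% of all genes. Higher were ligands such as WNT3 (37 and 44.5 CPM against 11.9 and 3.34 CPM) and WNT4 (19.8 and 28.1 CPM against 6.81 and 4.29 CPM). The antagonist SFRP1 was among the lower ones.

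Cells that failed the rule only by 4 or more cycling genes numbered 76 and 18, with higher medians of 15813 and 14940.5 UMIs. Of 6947 genes with at least 100 UMIs, 1.43% (99 genes) were at least 2-fold higher in the chosen cells in both libraries and 3.15% (219 genes) at least 2-fold lower. The 10 lowest were mitotic genes without exception, led by CDC20, an activator of the anaphase-promoting complex, at 4.75 and 1.72 CPM against 300.2 and 176 CPM. CCNB2, CDKN3, CDCA3, NEK2, HMMR, AURKB, CCNA2, KIF11 and PLK1 followed. S phase genes were less far apart, with 6 of 15 at least 2-fold lower in the chosen cells, such as RRM2, a subunit of ribonucleotide reductase, at 23 and 18.7 CPM against 131 and 266 CPM. MCM2 was at 43.1 and 49.1 CPM against 66.3 and 97.8 CPM. KRT15 was lower in the cycling cells, at 1935 and 1287 CPM, and COL17A1 was at 372 and 501 CPM there. Among the 10 genes highest in the chosen cells, RSPO3, an R-spondin that sustains WNT signals, was at 14.2 and 11.5 CPM and in 21 straight and 9 curly cells. It was at 2.55 CPM in the straight cycling cells and had 0 UMIs in the curly ones. This allows up to 11.7 CPM, above the curly value of the chosen cells, so the curly order of RSPO3 was not settled. FGF7, PCOLCE, IGF2, ACTA2, TP53INP1, OLFML3, INHBA, IRF8 and HOMER3 were the others, each with 0 or 1 UMI in the 18 curly cycling cells. The curly ratios of these genes thus rested on very few UMIs, and no trait of the chosen cells is read from them. Of the chosen cells themselves, 66.4% and 78.5% had none of the 6 cycling genes.

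The chosen cells varied widely among themselves. KRT15 had a median of 37.9 UMIs per 10000 in straight cells (quartiles 12.7 and 80.7) and of 38.2 in curly cells (13.5 and 68.6), and reached 312 and 303. POSTN had medians of 9.27 and 6.52, and CXCL14 of 8.26 and 7.79, each with cells at 0. The distributions of KRT15 overlapped almost wholly between libraries, as the plot by cell shows.

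**Figure D3:**
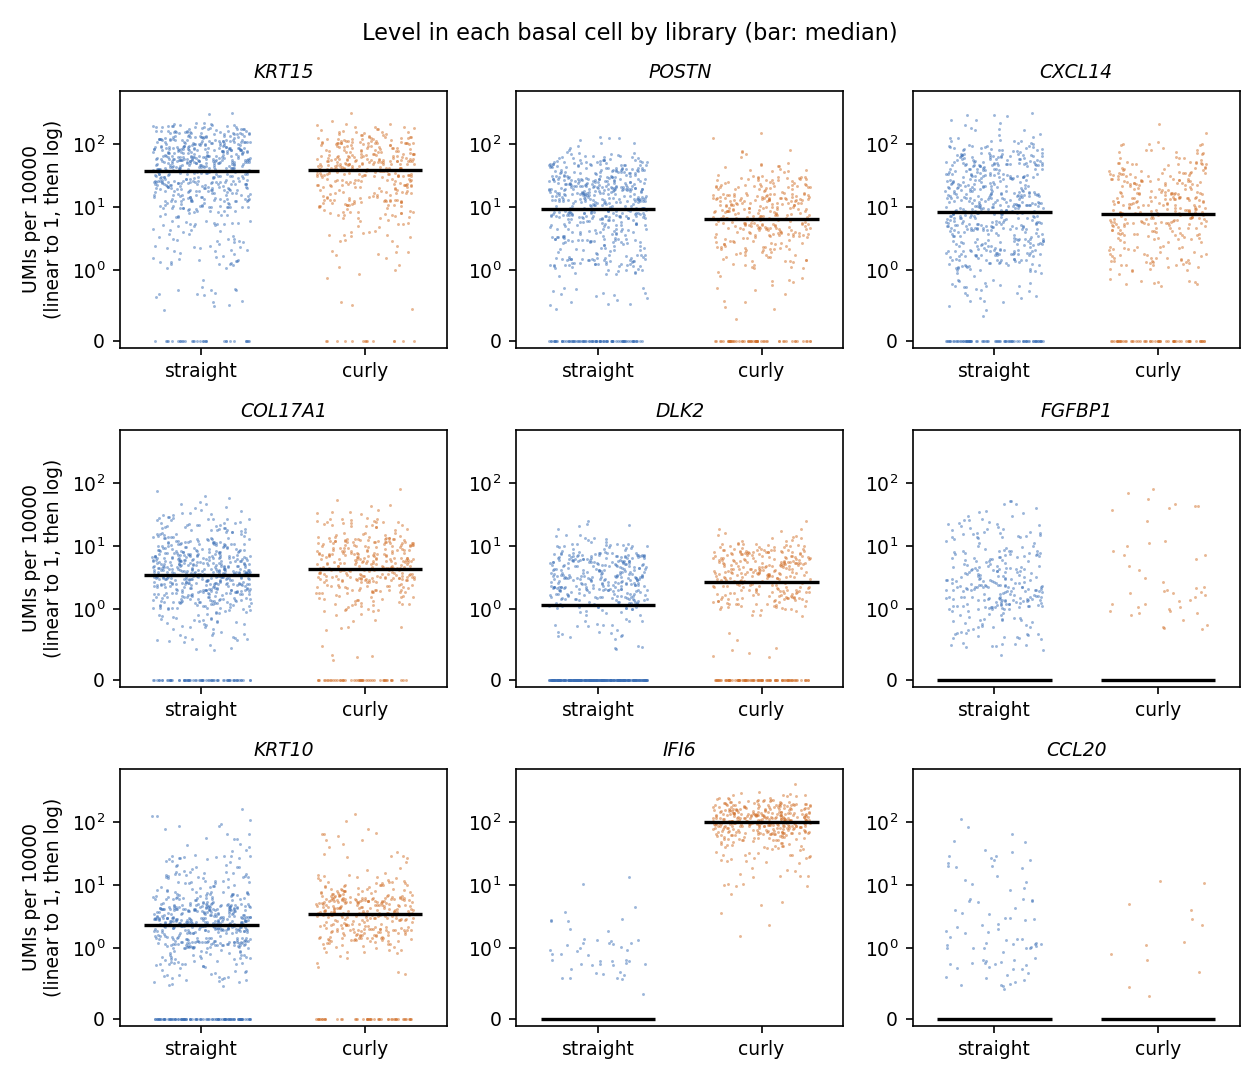
UMIs per 10000 (linear to 1, then logarithmic) of 9 genes in each of the 636 straight and 391 curly basal cells, with the median as a bar. KRT15 was alike in the libraries (medians 37.9 and 38.2), FGFBP1 was found in fewer curly cells, and IFI6 was found in every curly cell.

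Cells above and at or below their library's median of KRT15 were set side by side. In the cells with more KRT15, CXCL14 was at 3128 and 2259 CPM, against 990.0 and 668 CPM in the rest, and POSTN was at 1925 and 1126 CPM against 865 and 555 CPM. SFRP1 stood at 155 and 108 CPM against 61.7 and 36.9 CPM, and DLK2 at 283 and 397 CPM against 140.2 and 250.0 CPM. The cells with less KRT15 held more FGFBP1, at 331 and 402 CPM against 185 and 28.6 CPM, more SBSN, a suprabasal secreted protein, at 616 and 864 CPM against 371 and 391 CPM, and more FABP5, the fatty acid carrier of the epidermis, at 489 and 371 CPM against 258 and 172 CPM. POSTN, DLK2 and FGFBP1 are rule genes, and a cell without FGFBP1 needs 2 of the other 3 markers. The rule itself thus favours opposite orders of FGFBP1 and these genes. KRT5 was nearly level, at 12918 and 13931 CPM above and 13703 and 14097 CPM below. Median UMIs were 8332 and 7253 in the cells with more KRT15 and 10963 and 8989.5 in the others.

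A KRT1 UMI was present in 59.3% of the straight and 50.6% of the curly cells, at a median of 11062 and 9325 UMIs per cell against 7428 and 6991 in the others. Thinned to 2000 UMIs, the shares were 24.8% and 22.5%, while endothelial-like cells gave 13% and 18.8%. Cells with a KRT1 UMI held more KRT10, at 665 and 723 CPM against 337 and 392 CPM, and more SBSN, at 602 and 837 CPM against 311 and 423 CPM. They held less CXCL14, at 1564 and 1059 CPM against 2675 and 1753 CPM, and less SFRP1, at 85.8 and 51.2 CPM against 137 and 89.2 CPM. COL17A1 stayed close, at 401 and 533 CPM against 450.3 and 489 CPM. Summed KRTDAP in curly basal cells (441 CPM) and KRT1 (179 CPM) stood below the curly endothelial-like cells (834 and 887 CPM). The thinned shares had the other order, with KRTDAP in 55% of curly basal and 42.7% of curly endothelial-like cells, so no order is read for these genes.

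The cells with an FGFBP1 UMI, 286 straight and 46 curly, formed a further division, looked at after its values had been seen. Of 6350 genes with at least 100 UMIs in all and 20 in each library, 0.22% (14 genes) were at least 2-fold higher in FGFBP1-positive cells in both libraries and 0.394% (25 genes) at least 2-fold lower. KRT79, a keratin of the follicle opening and sebaceous duct, was at 252 and 799.7 CPM with FGFBP1 and at 43.4 and 68 CPM without it, with UMIs in 103 of 286 and 22 of 46 cells. PLIN2, the coat protein of lipid droplets, was at 355 and 1633 CPM against 114 and 91.4 CPM, with UMIs in 151 and 27 cells. CD320, the transcobalamin receptor, stood at 24.7 and 89.1 CPM against 7.8 and 9.67 CPM, and S100A9, a calprotectin subunit, at 114 and 97.4 CPM against 45.9 and 33 CPM. CLSTN3 and ACSM1 were farther apart still but rested on 22 and 10 cells and on 9 and 9 cells.

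Cells without FGFBP1 held more PTN, a heparin-binding growth factor, at 198 and 128 CPM against 42.4 and 37.3 CPM, more CRYAB, a small heat shock protein, at 296 and 245 CPM against 119 and 70.4 CPM, and more KRT6A, at 156 and 600.5 CPM against 35 and 109.8 CPM. In the curly library, 1611 of the 1854 KRT6A UMIs lay in 5 cells, while all cells with FGFBP1 held 53. The curly order of KRT6A thus rested on few cells. DCN, a dermal proteoglycan and 1 of the dermal markers, was at 95.5 and 143 CPM against 37 and 39.4 CPM, in 96 of the 345 curly cells without FGFBP1. DLK2, CDH13 and POSTN were lower with FGFBP1, which the rule itself favours, since a cell without FGFBP1 needs 2 of these 3. In the curly library, COL17A1 was at 259 CPM with and 555 CPM without FGFBP1, and KRT5 at 9218 and 14799 CPM. In the straight library, COL17A1 was at 389 and 444 CPM, and KRT5 at 12713 and 13993 CPM. The 46 curly cells with FGFBP1 thus held less of both genes than the other curly cells. KRT15 was at 4275 and 3679.7 CPM with and 5112 and 4452 CPM without FGFBP1. Median UMIs were 10164 and 9682.5 with and 8483.5 and 7776 without it. FGFBP1 was not restricted to basal cells, with a UMI in 40.2% and 27.3% of KRT1-high cells.

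**Figure D4:**
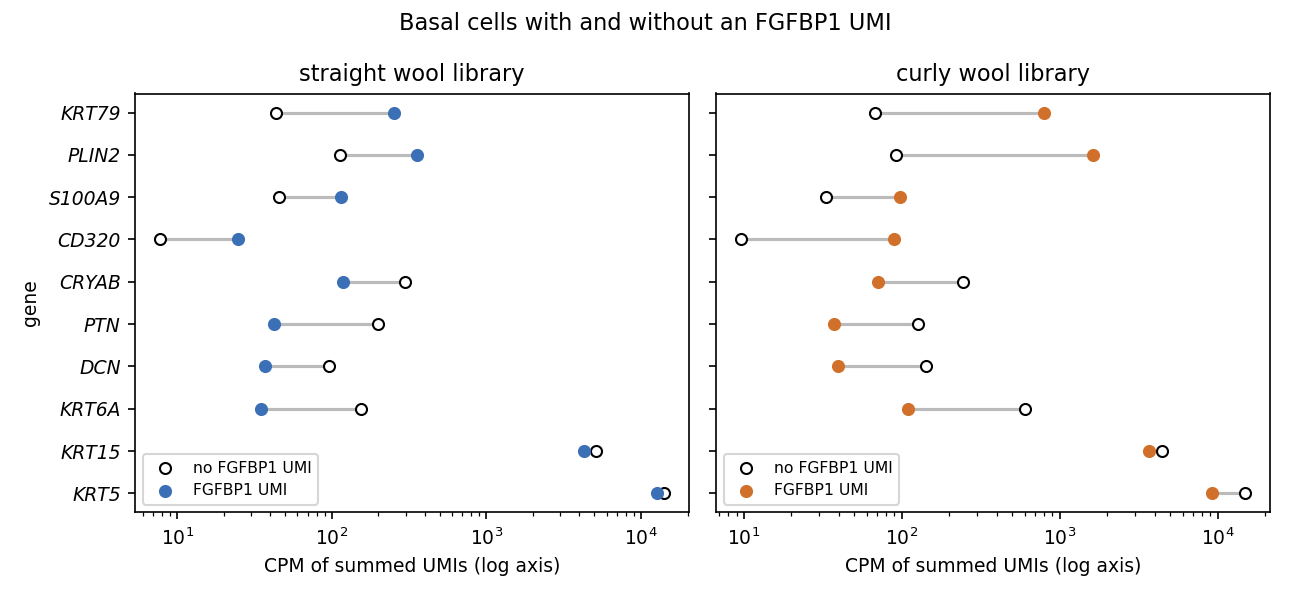
CPM of summed UMIs (log axis) of 10 genes in basal cells without (open) and with (filled) an FGFBP1 UMI in each library. KRT79 and PLIN2 were higher with FGFBP1 in both libraries, PTN, CRYAB, DCN and KRT6A were lower, and KRT5 was at 9218 against 14799 CPM in the curly library. Of the 1854 curly KRT6A UMIs, 1611 lay in 5 cells.

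Between the wool types, most basal keratinocyte genes lay close. Interferon-stimulated genes were higher in the curly library, and CCL20 and the growth factor ligands HBEGF and AREG were lower. The curly shares of cells with a CCL20 or an HBEGF UMI did not exceed the endothelial-like ones. SPP1 was lower too, but its difference was nearly lost when 1 marker was enough to choose the cells. Of 6395 genes with at least 100 UMIs, 5.47% (350 genes) were at least 2-fold apart, 2.11% (135 genes) higher and 3.36% (215 genes) lower in the curly library. Over all these genes the log2 ratio of curly over straight had a median of -0.11 and an SD of 0.72. Without the 1% of cells that held the most UMIs of a gene (6 straight and 4 curly cells), 122 of the 135 and 213 of the 215 genes kept a 2-fold difference. Of these genes, 39 and 64 stood at 3 or more times their endothelial-like CPM in the library where they were higher. In KRT1-high cells, 89 of the 135 and 93 of the 215 were also at least 2-fold apart in the same direction, between the same 2 libraries. The share over all genes in KRT1-high cells was not computed, so no excess is read from these counts.

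The structural genes of the layer were among those that lay close. Of 15 genes of the hemidesmosome and basement membrane, 0 were 2-fold apart, beside 5.47% of all genes, with a median log2 ratio of -0.10. COL17A1 had a log2 ratio of 0.30 (95% interval 0.22 to 0.39) and ITGB4 of -0.33 (95% interval -0.51 to -0.16). Of 14 desmosome and adherens junction genes 0 were apart (median -0.13), of 14 S phase genes 0 (median 0.053), of 8 Notch genes 0 (median -0.29), and of 18 epidermal transcription factors 0 (median -0.28). KRT5 was at 13362 and 14025 CPM and KRT15 at 4699.6 and 4345 CPM. Of 6 matricellular genes 0 were apart (median 0.0048), and SPARC was at 992 and 1032 CPM. POSTN, a rule gene, was at 1324 and 802 CPM, and S100A2, a calcium-binding protein of basal cells, at 7637 and 5027 CPM.

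Of 14 interferon response genes with at least 100 UMIs, 14 were at least 2-fold higher in the curly basal cells, against 2.11% of all genes. Their median log2 ratio was 3.12, also with the gene at 0 UMIs set to its bound. IFI6, a mitochondrial protein induced by interferon, had 9.66 CPM in the straight library and 9925 CPM in the curly library, a log2 ratio of 10.01 (95% interval 9.64 to 10.39). It had a UMI in 7.55% of straight and 100% of curly basal cells, and in 1.82% and 99.7% after thinning. Of endothelial-like cells, 32.9% and 99.1% had an IFI6 UMI. ISG15, a ubiquitin-like protein, was at 5.86 and 371 CPM, and MX1, an antiviral GTPase, at 4.12 and 189 CPM. MX2 had 0 UMIs in straight and 159 in curly cells, at least 96.2-fold higher against 3 counts over the straight cells. Outside the list, BST-2A, an ovine tetherin, had 1 and 909 UMIs, a log2 ratio of 10.69 (95% interval 8.21 to 15.99), and EPSTI1 had 3 and 231 UMIs. IFIT1, which binds foreign RNA, had 1 and 106 UMIs. B2M, the light chain of MHC class I, was at 418 and 1749.6 CPM, and PSMB9, a subunit of the immunoproteasome, at 19.8 and 139 CPM.

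Other populations of the curly library held these transcripts too. IFI6 was at 5.66 and 4515 CPM in KRT1-high cells, and 3.83 and 10443 CPM in LGR5-positive cells. Endothelial-like cells were at 113 and 10710.0 CPM of IFI6, so in the curly library LGR5-positive and endothelial-like cells stood above the basal cells and KRT1-high cells below them. Endothelial cells can make interferon-induced transcripts themselves, so their level does not separate free RNA from expression here, and the part of free RNA in the basal values was not tested. Over the whole list, endothelial-like cells summed to 5073 and 19383 CPM and basal cells to 562 and 12811 CPM. LY6E, a surface protein induced by interferon and not on the list, was at 13.6 and 418 CPM in basal cells, against 2.23 and 55.9 CPM in KRT1-high and 3.39 and 61.7 CPM in endothelial-like cells. The curly basal cells thus held more LY6E than either of these populations.

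**Figure D5:**
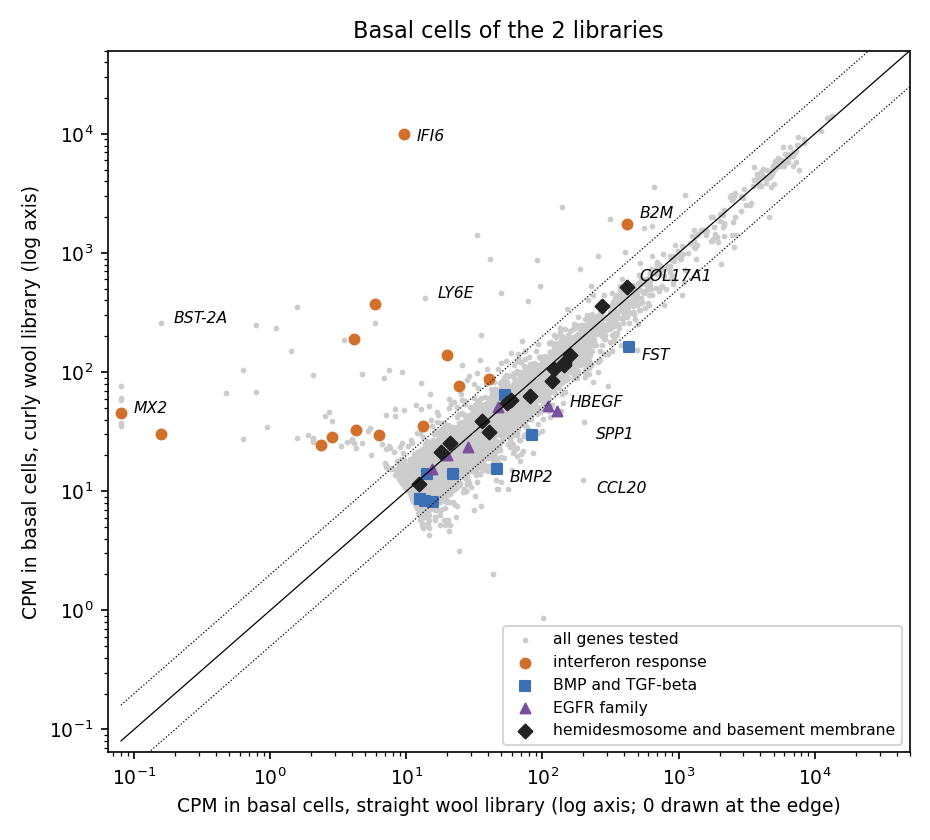
CPM in basal cells of the straight (horizontal) and curly library (vertical), both on log axes, for 6395 genes, with a solid line at equal CPM and dotted lines at a 2-fold difference. All 14 interferon genes lie above the upper dotted line, and genes of the hemidesmosome and basement membrane lie between the lines.

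Among genes at 3 or more times their endothelial-like CPM, C1R, a complement protease, was at 35.5 and 204 CPM (log2 ratio 2.52, 95% interval 2.30 to 2.75). It was found in 158 straight and 272 curly cells. CLDN10, a claudin, was at 8.23 and 49.1 CPM in 34 and 100 cells, and WFDC2, a protease inhibitor of epithelia, at 8.23 and 42.8 CPM in 39 and 70 cells. COCH was at 4.27 and 23 CPM in 14 and 27 cells. The first 3 of these rested on 34 or more cells in each library, while other genes of the 10 rested on few. Of the 148 curly UMIs of FLG 128 lay in 1 cell, of the 335 of LOR 258 lay in 1 cell, and of the 1854 of KRT6A 1611 lay in 5 cells. ACSM1 rested on 13 and 12 cells, and its log2 ratio of 2.61 was 0.52 with KRT14 at 80 or more. Of 13 suprabasal genes 4 were higher in the curly library, against 2.11% of all genes, with a median log2 ratio of 0.37. CST6, a cystatin of the cornifying layers, was at 1114 and 3046 CPM in basal cells. Endothelial-like cells held 423 and 1249 CPM of CST6, and its basal log2 ratio of 1.45 was 0.87 without the 1% highest cells. The 3 keratins of the inner root sheath, KRT71, KRT25 and KRT27, were higher too, and KRT71 was at 58.9 and 144 CPM beside 65.2 and 150.3 CPM in endothelial-like cells. KRT71 thus stood near its endothelial-like level in the basal cells of both libraries.

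At the lower end stood CCL20, a chemokine that keratinocytes make for cells with the receptor CCR6, with 200.1 CPM in the straight library and 12.3 CPM in the curly library (log2 ratio -4.02, 95% interval -4.49 to -3.58). It was found in 87 straight and 13 curly cells, and in 6.6% and 1.63% of cells after thinning. Endothelial-like cells were at 3.39 and 5.14 CPM, with a UMI in 2.74% and 3.7% of cells, and KRT1-high cells at 281 and 166 CPM. Unthinned, 13.7% of straight and 3.32% of curly basal cells had a UMI. Thinned, the endothelial-like shares were 0.87% and 0% (95% interval up to 3.77% in curly), so the curly basal share was not distinguishable from that level. SPP1, the gene of osteopontin, was at 201 and 38.2 CPM in 155 and 55 cells, though endothelial-like cells held 21.2 and 107 CPM. Its log2 ratio of -2.39 was -0.11 when 1 marker was enough to choose the cells. AGMO, which cleaves ether lipids, was at 35.3 and 7.47 CPM in 165 and 23 cells, PTGS2, the inducible cyclooxygenase, at 46.1 and 10.3 CPM in 82 and 23 cells, and SGMS2, a sphingomyelin synthase, at 45.4 and 12.3 CPM in 150 and 38 cells. The log2 ratio of PTGS2 was -2.16, and -0.70 with KRT14 at 20 or more UMIs per 10000. S100A8, the partner of S100A9, was at 60 and 14.9 CPM, and TEX9 at 23.1 and 6.03 CPM. S100A8 was the 1 of 9 epidermal cytokine and antimicrobial genes at least 2-fold lower, against 3.36% of all genes. Of these 9, 0 were higher, and the median of the list was -0.70. The WNT inhibitor WIF1 was at 31.3 and 6.89 CPM in 67 and 11 cells. IL6 was at 24.2 and 3.16 CPM with 421 and 474 CPM in endothelial-like cells, which endothelial cells can express themselves. COL1A1, COL1A2 and FMOD are genes of dermal cells, and 132 of the 312 straight UMIs of COL1A1 lay in 1 cell.

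Growth factors and their partners made up a part of the lower genes. Of 6 EGFR family genes, 2 were at least 2-fold lower in the curly library, against 3.36% of all genes, and both are ligands. HBEGF was at 129 and 47.1 CPM (log2 ratio -1.45, 95% interval -1.70 to -1.20), in 42.1% and 22% of cells beside 32.2% and 24.1% of endothelial-like cells, and AREG at 110.3 and 52.3 CPM (-1.08, 95% interval -1.32 to -0.84). For HBEGF, too, the curly share did not exceed the endothelial-like one. The receptor EGFR was at 47.3 and 50.5 CPM (0.09, 95% interval -0.18 to 0.37). Of 9 BMP and TGF-beta genes, 3 were lower, with a list median of -0.71. FST, the antagonist of activins, was at 435 and 161 CPM (-1.43, 95% interval -1.56 to -1.30), BMP2 at 46.7 and 15.2 CPM (-1.62, 95% interval -2.07 to -1.19), and TGFBI, a matrix protein induced by TGF-beta, at 84.4 and 29.6 CPM (-1.51, 95% interval -1.83 to -1.21). In LGR5-positive cells FST was at 413 and 69.1 CPM and TGFBI at 69.4 and 7.39 CPM, so the order was the same there. Of 8 genes of the IGF axis 1 was lower, IGFBP6, at 39.6 and 14.6 CPM below its 69.4 and 60.4 CPM in endothelial-like cells. Of 9 cyclins and CDK inhibitors 1 was lower, CCND2, at 95 and 46 CPM (-1.05, 95% interval -1.31 to -0.79), which lies close to the 2-fold limit.

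WNT genes included 2 of 14 that were higher in the curly library and 0 lower, beside 2.11% and 3.36% of all genes. WNT6 was at 9.5 and 21 CPM (1.14, 95% interval 0.63 to 1.66), and DKK3, a secreted protein of the Dickkopf family, was at 7.12 and 22.4 CPM (1.65, 95% interval 1.11 to 2.22). WNT4 was at 19.8 and 28.1 CPM and WNT10A at 35.3 and 49.7 CPM, both short of 2-fold. Of 11 metabolic genes 2 were higher, among them APOE, a lipid carrier, at 25.6 and 116 CPM, with 103 and 38.5 CPM in endothelial-like cells. Of 4 FGF genes 0 were 2-fold apart.

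Immediate early genes, which dissociation of skin is known to induce, had a median log2 ratio of -0.37 beside -0.11 over all genes. Of 21 such genes, 0 were 2-fold apart, beside 5.47% of all genes. IER3 was at 1352 and 897 CPM and JUNB at 1780.1 and 1301 CPM, while FOS was at 2173 and 1771 CPM. The part of this response in the values of HBEGF, AREG, PTGS2 and CCL20 was not tested. All ratios between the libraries compare 1 pool of lambs with another.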

How the data were processed

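Skin cells of 3-day-old Hu lambs were profiled with 10× Genomics, 1 library per wool type, each pooled from 3 lambs. Groups were taken from the sample labels. The submitters' processing notes name Cell Ranger 3.0.2, while the study's methods name an older version, and the genome was Oar_rambouillet_v1.0. The table deposited by the authors holds the natural log (ln) of 1 plus UMIs scaled to 10000 per cell, not the counts that the design had assumed. UMI counts were recovered by scaling each cell to its smallest value, and 100% of 28552149 values above 0 came out within 0.01 of a whole number. The table holds 14037 cells, fewer than the study states after its quality control, and no further filter on cells was applied.

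Members were chosen by the rule given above, UMIs were summed per population and library, and genes with at least 100 UMIs over the cells compared were kept. A gene was counted as apart when CPM differed at least 2-fold, in both libraries for contrasts with other keratinocytes. Where a library had 0 UMIs, 0.5 was added to both counts for the fitted ratio, and the floor of 3 counts gave the bound. Intervals are exact: Poisson for CPM, Clopper-Pearson for shares and a binomial split of the UMIs for ratios. With 1 library per group no test was possible, and cells were not taken as replicates. The pools hold 3 lambs each, so differences between lambs cannot be seen.

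No doublet caller was run, and cells with markers of another type were left out in an alternative. Named genes were the members of the gene lists, the 10 genes with a symbol farthest apart each way at 3 or more times their endothelial-like CPM, the 5 farthest apart each way among all, and the 10 farthest each way per keratinocyte contrast. The genes of the FGFBP1 division and the genes given with UMIs in few cells were chosen after their values were seen. Members and lists were chosen with earlier results of these data known. RefSeq ARS-UI_Ramb_v3.0 served for names alone and matched 331 of 3912 LOC names. Calculations used scipy 1.17.1 and numpy 2.4.6 under Python 3.11.15, with pandas 2.3.3 for tables and matplotlib 3.10.9 for plots, and the scripts were tested on simulated data.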

Additional observations from a re-analysis of the deposited data

Results flagged for a closer look

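KRT6A, a keratin of activated epidermis and of the companion layer, was higher in the curly library in basal cells and lower in KRT1-high cells. In basal cells the log2 ratio of curly over straight was 2.47 (95% interval 2.34 to 2.60), and in KRT1-high cells it was -1.01 (-1.12 to -0.91). The difference between the populations was not tested, since each wool type has 1 library. Of the 1854 UMIs in curly basal cells, 1611 lay in 5 cells, and without the 1% of cells with the most KRT6A the basal ratio was 1.40.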

How the results depend on the processing

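The log2 share ratio of -0.94 was negative under all 14 alternative rules. It was -0.69 with KRT14 at 80 or more, -0.54 with 1 marker, -1.12 with 3 markers, -1.28 without DLK2 as a marker, -0.65 without the follicle genes, -0.69 with 0 cycling genes allowed and -1.12 when cells with few genes were left out. The numbers of genes apart between libraries, 135 higher and 215 lower in curly, were 369 and 661 from 20 UMIs upward, 65 and 106 from 300 UMIs upward, 39 and 64 for genes at 3 times their endothelial-like CPM, and 46 and 74 in cells thinned to 2000 UMIs. With 1 marker 222 genes were higher. TMM factors gave 147 and 165. Leaving out the 1% of cells highest in each gene, a setting chosen after seeing the data, gave 129 and 311. Against KRT1-high cells, 653 genes higher in basal cells became 1221 from 20 UMIs upward, and 321 higher and 309 lower (of 491) were found from 300 UMIs upward. Against LGR5-positive cells, 203 and 258 became 462 and 467 from 20 UMIs upward, and 83 and 146 from 300. Against cycling basal cells, 99 and 219 became 226 and 451 from 20 UMIs upward, and 25 and 100 from 300, and 47 were higher with 3 markers. A higher minimum leaves fewer genes to compare. For the other settings the cause was not tested. Of 560 values of 27 genes named between libraries under 21 alternatives, 476 lay inside the counting interval, 84 moved beyond it in the same direction and 0 reversed. In 8 of these values, of 7 genes, the 2-fold difference was lost. SPP1 went from -2.39 to -0.11 with 1 marker. PTGS2 went from -2.16 to -0.70, COL1A1 from -2.03 to -0.83 and COL1A2 from -1.90 to -0.86 with KRT14 at 20 or more. ACSM1 went from 2.61 to 0.52 with KRT14 at 80 or more and to 0.86 without the highest 5% of cells by UMIs, where KRT6A went from 2.47 to 0.60. FLG went from 4.07 to 0.97 with 0 cycling genes. No paired analysis was possible because each wool type has 1 library. Depth limits genes of few UMIs, since 3 counts correspond to 0.475 CPM for the straight and 0.862 CPM for the curly basal cells.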

Other observations

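Some values of the curly basal cells rested on a single cell. CD74, the invariant chain of MHC class II, had 328 UMIs, and 327 of them lay in 1 cell. CCL20 was found together with a KRT1 UMI in 59 of 87 straight cells (67.8%) and in 3 of 13 curly cells (23.1%). Among all chosen cells, 59.3% of the straight and 50.6% of the curly ones had a KRT1 UMI. The curly share rested on 13 cells, and a link between CCL20 and KRT1 was not tested.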
